A study of Arabidopsis thaliana with 8 samples.

Results

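A set of 8 loci of Arabidopsis thaliana that encode lipid transfer proteins were followed in stems whose fibers carried an activated AP2/ERF transcription factor. They were LTP1 (AT2G38540, also named LP1), LTP2 (AT2G38530), LTP3 (AT5G59320), LTP4 (AT5G59310), LTP5 (AT3G51600), LTP6 (AT3G08770), LTPG1 (AT1G27950) and LTPG2 (AT3G43720). The members were chosen by locus: every non-control probe on the array whose RefSeq transcript belonged to one of these loci was taken, which gave 16 probes for 8 genes out of 43603 probes and 25410 matched loci. The choice was made with earlier results of the same comparison in view, so the values of the 8 genes are given as a description with standard errors. No p-value is given for them, and where their calls in a fit across all genes are counted, the count stands beside the share over all genes and supports nothing.

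Stems of nst1-1 nst3-1 plants that carried the construct NST3pro:CEF2-VP16:HSP, named CEF2-VP16 nst1 nst3 or the transgenic group below, were set against stems of nst1-1 nst3-1 plants without it, named nst1 nst3 or the control group. Both groups were in Col-0 and both carried the nst1-1 and nst3-1 mutations, so neither had the pair of NAC factors that start secondary wall deposition in fibers. In the construct the promoter of NST3, active in fiber cells, drives a fusion of the factor with the VP16 activation domain. The labels call the factor CEF2, and the design text of the series calls it ERF035 (AT3G60490). Each group had 4 arrays, each made with RNA from whole stems 10 cm long. The sources used here do not give how many plants or lines stood behind an array. The spread between these arrays, on which the errors draw, may thus be technical. In RNA from a whole stem, fewer cells of a type and less RNA per cell cannot be told apart.

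Type 1 lipid transfer proteins are small, secreted proteins whose disulfide-bonded helices enclose a hydrophobic tunnel that can hold a fatty acid or a phospholipid. Many of them are made in the epidermis and lie in the cell wall under the cuticle, the layer of cutin and wax on aerial organs. LTPGs are related proteins held on the outer face of the plasma membrane by a glycosylphosphatidylinositol anchor. In the stem, wax made in the endoplasmic reticulum leaves the epidermal cell through the transporters ABCG11 and ABCG12, and LTPG1 and LTPG2 are needed for normal wax on the surface.

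Levels are given on a log2 scale as each array's processed signal relative to the 75th percentile of its non-control probes, so that 0 is the 75th percentile, and a value of -6.64 is the floor set at 0.01 of it. That percentile was 3255, 2344, 2615 and 2423 signal units on transgenic arrays 1 to 4, and 3632, 2774, 3330 and 3642 on control arrays 1 to 4. On each array 30289 to 32382 probes exceeded background clearly. ERF035 stood at 4.06, 4.05, 4.17 and 4.27 on transgenic arrays 1 to 4, and at -3.07, -2.38, -5.87 and -2.99 on control arrays 1 to 4. Over all genes tested, arrays correlated at 0.987 to 0.994 within the transgenic group, at 0.953 to 0.987 within the control group and at 0.877 to 0.936 between the groups. The transgenic arrays lay on 1 slide and the control arrays on the other, so slide and genotype cannot be told apart. With a limma fit over 19609 genes, 54.2% of all genes passed a Benjamini-Hochberg adjusted p of 0.05, 29.5% higher and 24.8% lower in CEF2-VP16 nst1 nst3. When arrays were instead scaled on 8 detected spike-in probes, the median difference over all genes went from 0.03 to -0.39. The shares became 10.7% higher and 40.0% lower.

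All 8 genes passed the filter on dim probes, which asked for a signal well above background on at least 4 of 8 arrays, and all 8 means were higher in transgenic stems. The differences, CEF2-VP16 nst1 nst3 minus nst1 nst3, ran from 0.33 ± 0.14 for LTP4 to 7.44 ± 1.07 for LTP1 (SE, n = 4 per group). Their median was 1.85, beside 0.03 over all genes. SEs of differences, here and below, are the moderated errors of the limma fit, which draw in part on the variance of all genes. From a gene's own arrays alone the SE was larger for each member, at 1.23 for LTP1 and 0.15 for LTP4. LTP1, LTP3, LTP5, LTP6, LTPG1 and LTPG2, 6 of 8, were called higher at an adjusted p under 0.05 and none was called lower, beside 29.5% higher among all genes; since the genes were picked from this contrast, nothing is read from the count. The 2 groups of arrays did not overlap for 7 of 8 genes, LTP4 being the exception, beside 27.9% of all genes apart in that direction and 50.7% apart in either; nothing is read from this count either. For LTP2 the separation carries no weight, since it passed the filter through the transgenic arrays alone and every control array was placed at the floor. Its signals did not overlap before the floor either, but no control signal was well above background. Under spike-in scaling 5 of 8 were called higher, with a median of 1.50, beside 10.7% higher and a median of -0.39 over all genes.

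**Figure D1:**
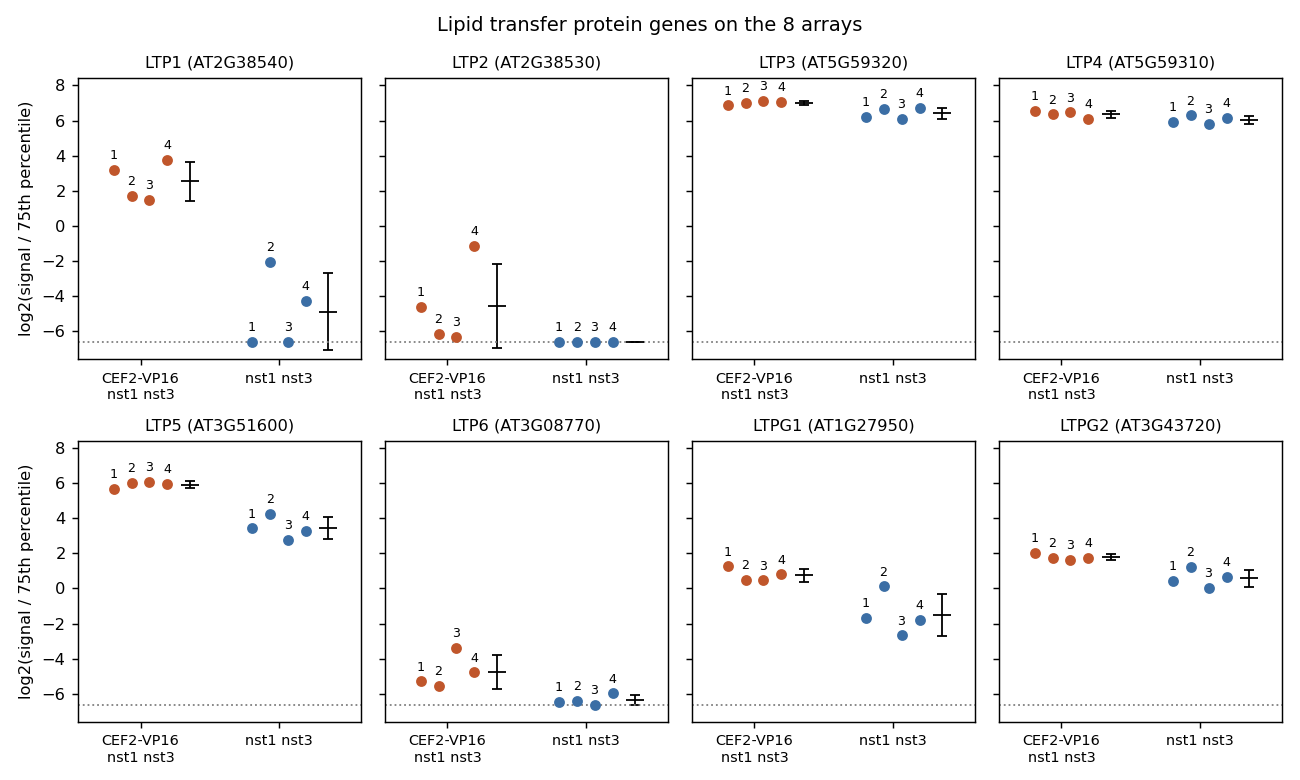
Level of each of the 8 genes on the 8 arrays, in log2 units with 0 at the array's 75th percentile. Orange points are CEF2-VP16 nst1 nst3 arrays and blue points nst1 nst3 arrays, numbered by replicate; bars are mean and SD (n = 4) and the dotted line is the floor at -6.64. LTP1 shows the widest gap between groups, LTP2 leaves the floor on transgenic arrays alone, and LTP3 and LTP4 sit high in both groups.

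LTPG1, the anchored protein first tied to wax export in the stem, was at 1.25, 0.50, 0.46 and 0.80 on transgenic arrays 1 to 4, and at -1.68, 0.12, -2.68 and -1.80 on control arrays 1 to 4. Every transgenic array was above every control array, but control array 2 came within 0.34 of the lowest transgenic one while the other controls lay far below. LTPG1 averaged 0.75 ± 0.37 in transgenic stems and -1.51 ± 1.17 in control stems (SD, n = 4 each). The difference was 2.26 ± 0.54 (SE), a 4.79-fold higher signal, and it was 2.80 without control array 2. Leaving out control array 3 instead gave 1.87, the lowest value with any array left out.

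LTPG2, which shares part of its role in wax deposition with LTPG1, was at 2.04, 1.76, 1.63 and 1.73 on transgenic arrays 1 to 4, and at 0.44, 1.21, 0.03 and 0.64 on control arrays 1 to 4. The groups were apart, the transgenic arrays lay close together, and control array 2 was again the highest control and array 3 the lowest. LTPG2 averaged 1.79 ± 0.18 in transgenic stems and 0.58 ± 0.49 in control stems (SD, n = 4 each). The difference was 1.21 ± 0.23 (SE), or 2.31-fold. A second probe stood at -0.0040, -0.31, -0.38 and -0.34 on transgenic arrays 1 to 4, and at -1.59, -0.77, -2.13 and -1.45 on control arrays 1 to 4, with the same order of arrays in each group and a difference of 1.23. Values with 1 array left out ran from 1.03 to 1.42. Under spike-in scaling the difference of LTPG2 was 0.77.

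LTP1 and LTP2 are neighbours in the gene table, with no other listed gene between them, and encode similar proteins, so that probes of one may also bind transcripts of the other. LTP1 is a wall protein found mainly in epidermal cells. Its signal on transgenic arrays 1 to 4 was 9.16, 3.26, 2.81 and 13.4 times the 75th percentile, and on control arrays 1 to 4 it was 0.00656, 0.238, 0.00112 and 0.0517 times. On the log2 scale these are 3.19, 1.70, 1.49 and 3.74 in transgenic stems, and -6.64, -2.07, -6.64 and -4.27 in control stems. The groups were far apart, and each spread widely within itself: transgenic arrays 1 and 4 stood above arrays 2 and 3, and control array 2 stood well above the others.

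LTP1 averaged 2.53 ± 1.11 in transgenic stems and -4.91 ± 2.20 in control stems (SD, n = 4 each), a difference of 7.44 ± 1.07 (SE) or 174-fold. Of the control arrays 2 of 4 were well above background and the other 2 were at the floor, so the fold depends on where the floor is set. With a floor at 0.001 of the 75th percentile, the difference of LTP1 was 8.38, and after normexp background correction it was 6.58. Without control array 2 it was 8.39. LTP1 had 4 usable probes, whose differences ran from 5.02 for the dimmest to 7.44 for the brightest. On the second probe by brightness LTP1 was at 1.91, 0.060, -0.11 and 2.18 on transgenic arrays 1 to 4, and at -6.64, -3.41, -6.64 and -6.28 on control arrays 1 to 4. The order of the transgenic arrays, with array 4 highest, then 1, 2 and 3, was the same on 4 of 4 probes, and the highest transgenic array was 4.76 times the lowest on the brightest probe.

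LTP2, whose loss in seedlings grown in the dark loosens the contact of cuticle and wall, was near the limit of detection. Its processed signal on transgenic arrays 1 to 4 was 132, 33.0, 31.8 and 1089 units, and on control arrays 1 to 4 it was 28.9, 5.63, 11.9 and 17.6 units. It was well above background on 4 of 4 transgenic arrays and on 0 of 4 control arrays. On the log2 scale LTP2 was at -4.62, -6.15, -6.36 and -1.15 in transgenic stems, against -6.64, the floor, on each control array. Array 4 carried most of the transgenic signal, array 1 was next, and arrays 2 and 3 were just above the floor.

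Since no control array measured LTP2, only its control level is bounded. With the controls at the floor, the transgenic mean of -4.57 ± 2.41 (SD, n = 4) was 4.20-fold above them. That fold rests largely on transgenic array 4 and is not a lower limit. The difference with the controls at the floor was 2.07 ± 1.04 (SE). It was 0.93 without transgenic array 4 and 2.67 without transgenic array 3. The second probe, with 30.5, 4.38, 11.5 and 278 signal units on transgenic arrays 1 to 4 and 14.9, 10.1, 3.85 and 18.4 on control arrays 1 to 4, was well above background on only 2 arrays and gave 0.88; on both probes transgenic array 4 was the highest. The highest transgenic array was 37.0 times the lowest.

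**Figure D2:**
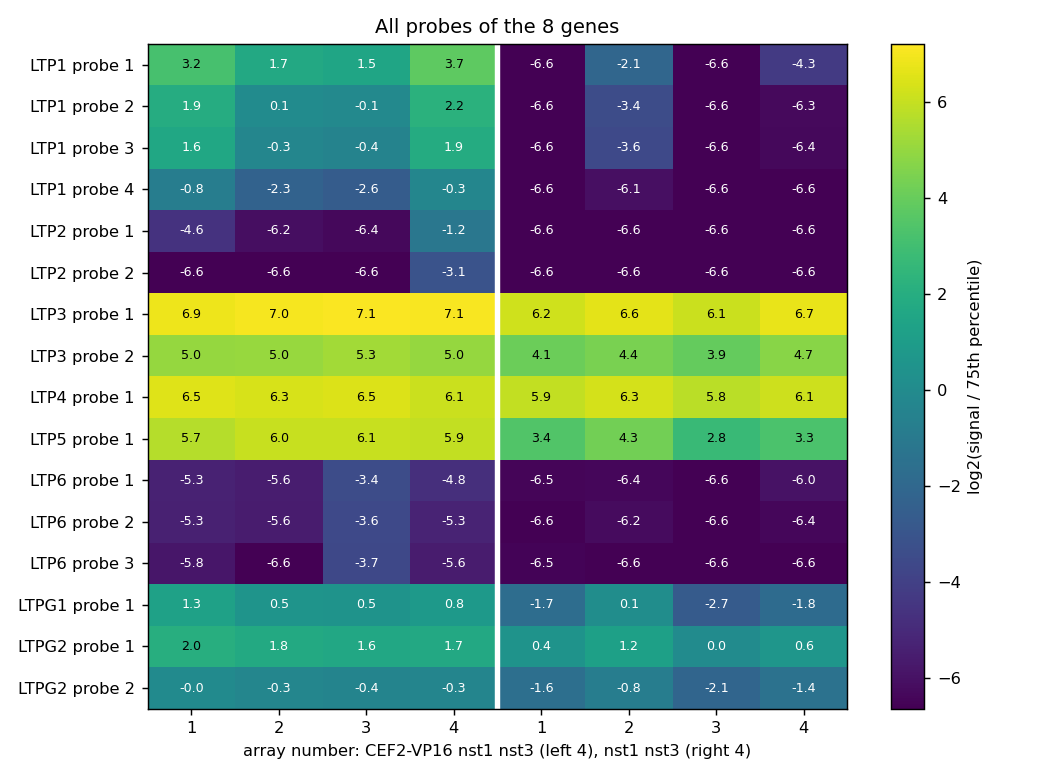
Each of the 16 probes of the 8 genes (rows) on the 8 arrays (columns), CEF2-VP16 nst1 nst3 to the left of the white line and nst1 nst3 to the right. Colour and number give the level in log2 units, with 0 at the array's 75th percentile, and levels are not comparable between probes. The 4 LTP1 probes share the order of the transgenic arrays, both LTP2 probes are brightest on transgenic array 4, and the 3 LTP6 probes on transgenic array 3.

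LTP3 and LTP4 are likewise neighbours and close relatives, and cross-hybridisation between them cannot be told apart from expression of each. LTP3, a target of MYB96 that acts in drought and freezing tolerance, was at 6.86, 6.99, 7.10 and 7.08 on transgenic arrays 1 to 4, and at 6.21, 6.64, 6.10 and 6.74 on control arrays 1 to 4. All transgenic values were above all control values by a narrow margin. LTP3 averaged 7.01 ± 0.11 in transgenic stems and 6.42 ± 0.31 in control stems (SD, n = 4 each), a difference of 0.59 ± 0.16 (SE) or 1.50-fold. A second probe stood at 4.99, 5.04, 5.30 and 5.01 on transgenic arrays 1 to 4, and at 4.10, 4.43, 3.95 and 4.73 on control arrays 1 to 4, again apart, with a difference of 0.78. On both probes control array 3 was the lowest and control array 4 the highest. Values of the first probe with 1 array left out ran from 0.48 to 0.69. The difference of LTP3 fell to 0.23 under quantile normalization and to 0.15 under spike-in scaling.

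LTP4 was at 6.54, 6.35, 6.47 and 6.08 on transgenic arrays 1 to 4, and at 5.92, 6.29, 5.79 and 6.14 on control arrays 1 to 4. The groups overlapped, since transgenic array 4 lay below control arrays 2 and 4. LTP4 averaged 6.36 ± 0.20 in transgenic stems and 6.03 ± 0.22 in control stems (SD, n = 4 each). The difference was 0.33 ± 0.14 (SE), or 1.25-fold. It ran from 0.25 to 0.42 with 1 array left out. The direction turned with scaling: the difference of LTP4 was 0.096 under quantile normalization and -0.12 under spike-in scaling. No spot of either gene was saturated.

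LTP5, known from pollen tubes, where it acts in tip growth, was at 5.65, 6.02, 6.06 and 5.95 on transgenic arrays 1 to 4, and at 3.43, 4.25, 2.75 and 3.28 on control arrays 1 to 4. Even the highest control array, array 2, was 1.40 below the lowest transgenic one. LTP5 averaged 5.92 ± 0.19 in transgenic stems and 3.43 ± 0.62 in control stems (SD, n = 4 each), a difference of 2.50 ± 0.29 (SE) or 5.64-fold. Leaving out single arrays gave 2.27 to 2.77, and the other settings 2.05 to 2.66. LTP5 lies beside LTP12 (AT3G51590), a gene of the anther tapetum, whose probes were too dim in these stems to be tested. Of 4 measured markers of pollen and flowers none was higher and 3 were lower in transgenic stems, beside 24.8% of all genes lower. Their summed signal was 2.58 to 3.80 times the 75th percentile in transgenic stems against 7.82 to 9.39 times in control stems, with AG and AP3 not measured.

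LTP6 was dim in both groups, at -5.30, -5.55, -3.40 and -4.79 on transgenic arrays 1 to 4, and at -6.48, -6.42, -6.64 and -5.99 on control arrays 1 to 4. The groups were apart, with transgenic array 3 the highest and 1 control array at the floor. LTP6 averaged -4.76 ± 0.96 in transgenic stems and -6.38 ± 0.28 in control stems (SD, n = 4 each), a difference of 1.62 ± 0.44 (SE) or 3.07-fold. It was 1.17 without transgenic array 3 and 1.00 after normexp background correction. In multiples of the 75th percentile LTP6 stood at 0.0253, 0.0213, 0.0948 and 0.0361 on transgenic arrays 1 to 4, and at 0.0112, 0.0117, 0.00974 and 0.0158 on control arrays 1 to 4. Its 3 probes gave 1.19 to 1.62, and 3 of 3 put the transgenic arrays in the same order.

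**Figure D3:**
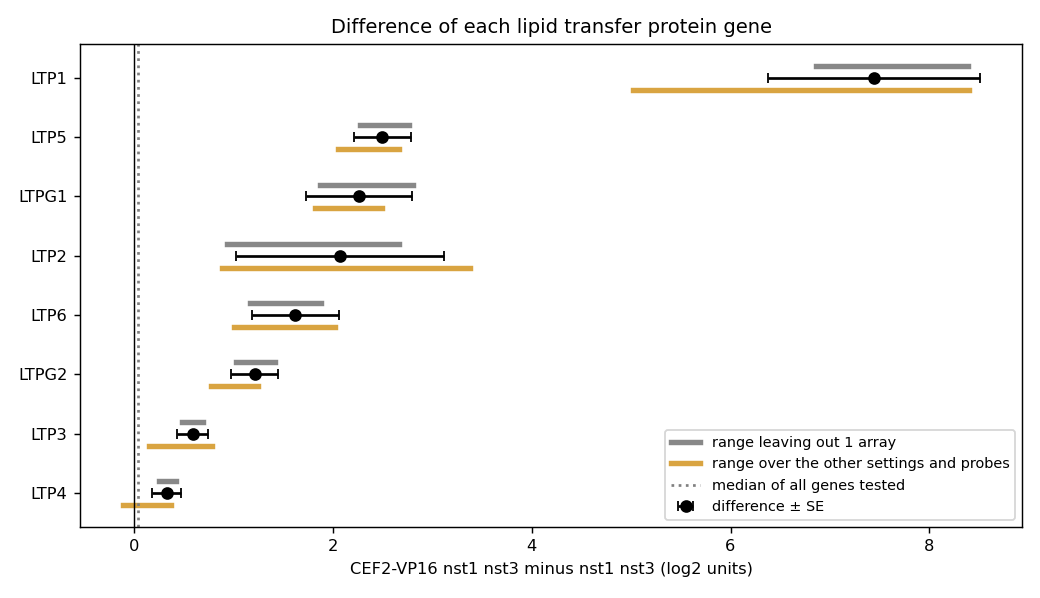
Difference of each gene, CEF2-VP16 nst1 nst3 minus nst1 nst3, in log2 units with its moderated SE from the limma fit (black, n = 4 per group). Grey bars span the values with 1 array left out and yellow bars those under the other settings and probes; the dotted line is the median of all genes, 0.03. For LTP4 alone the yellow bar crosses 0, reaching -0.12, and the LTP1 difference stays at 5.02 or more.

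Arrays within a group differed more for some of these genes than for most genes on the array. The SD of LTP2 over the transgenic arrays was exceeded by 7 of 19609 genes, that of LTP1 by 127 and that of LTP6 by 201, while the median gene had an SD of 0.13 there. These genes did not share the high array: LTP1 and LTP2 were highest on transgenic array 4, and LTP6 on array 3. LTP2 and LTP6 were dim, and they are ranked here against genes of any brightness. The part of low signal in their SDs was not tested. LTP3, LTP4, LTP5 and LTPG2 had transgenic SDs between 0.11 and 0.20. Over the control arrays, where the median gene had an SD of 0.21, the SD of LTP1 was exceeded by 81 genes.

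Control array 2 was the highest control for 5 of 8 genes and control array 3 the lowest for 6 of 8, beside 29.7% and 22.3% of all genes. Ties went to the lower-numbered array, here and in the shares over all genes. LTP2, at the floor on every control array, has no order among them, and LTP1 was tied at the floor on arrays 1 and 3. For LTP1, LTP4, LTP5, LTPG1 and LTPG2 the controls thus ran from array 3, or arrays 1 and 3 at the floor, up to array 2. Without control arrays 2 and 3 together the difference of LTP1 was 7.99, and it was 0.33 for LTP4, 2.57 for LTP5, 2.49 for LTPG1 and 1.25 for LTPG2. The source of the variation between control arrays was not tested.

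**Figure D4:**
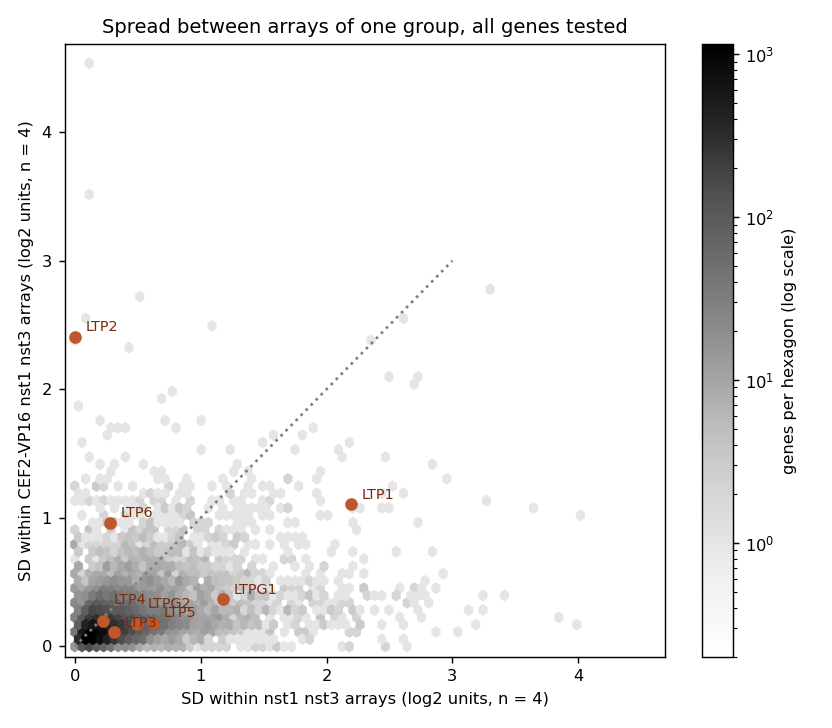
SD over the 4 CEF2-VP16 nst1 nst3 arrays (vertical) against SD over the 4 nst1 nst3 arrays (horizontal), in log2 units. Grey hexagons count the 19609 genes tested on a log scale, orange points are the 8 genes and the dotted line marks equal SD. Over the transgenic arrays LTP2 has an SD of 2.41 and LTP6 of 0.96; over the control arrays LTPG1 has 1.17, and LTP2 has 0 only because every control array was placed at the floor.

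The genes most like each member were found by the root mean square (RMS) difference between log2 profiles over the 8 arrays, each centred on its own mean. The closest profiles to LTP1 were XTH8 (a xyloglucan endotransglucosylase/hydrolase) at 0.87, BAS (a beta-amyrin synthase) at 0.88 and ADS4 (a desaturase-like protein) at 0.89. Those nearest to LTP2 were XTH20 at 0.69, CYP709B2 at 0.76 and AT4G36850 at 0.76. These matches were set in part by the floor. On control arrays 1 and 3 LTP1, XTH8 and BAS were all at it, and ADS4 was on array 3. LTP2 was at the floor on every control array, XTH20 on 3 of 4, AT4G36850 on 2 and CYP709B2 on 1. LTPG1 lay nearest to AGP18 (an arabinogalactan protein) at 0.19, SPL15 (a transcription factor) at 0.25 and BDG (an epidermal protein needed for the cuticle) at 0.25.

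Tighter matches were found for the less variable genes. LTPG2 lay nearest to ATPD (a subunit of the chloroplast ATP synthase) at 0.09, FKBP13 at 0.10 and RPL27 (a chloroplast ribosomal protein) at 0.11. LTP4 lay at 0.07 from BAM2, PETC (the Rieske protein of the cytochrome b6f complex) and ZKT, and LTP3 at 0.08 from AT1G75620 and IQD16 and 0.09 from RTM1. LTP5 was nearest to AT3G08490 and AT1G11740, both at 0.14, and AT5G52220 at 0.17. LTP6 was nearest to AT4G12890 at 0.27, AT4G34790 at 0.46 and AT5G57760 at 0.51. The genes nearest to LTP6 were each at the floor on 4 of 4 control arrays, so the control part of their profiles was a constant. Among the members themselves LTP3 and LTP4 were closest at 0.23, LTP3 and LTPG2 differed by 0.40, LTP5 and LTPG1 by 0.49, and LTP1 was 2.76 or more from every other.

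Other genes of the lipid transfer families were measured in part. Of 9 other type 1 genes, 2 were measured, and 1 passed the test: LTP7 was 1.07 ± 0.16 (SE) higher in transgenic stems (limma adjusted p = 0.000863), beside 29.5% of all genes higher. The difference of LTP7 was 0.73 with its usable probes averaged and 0.63 under spike-in scaling, and it was called in both. The remaining one, LTP14, was well above background on 1 of 4 transgenic arrays and on 4 of 4 control arrays, with levels at the floor on all but transgenic array 4, so no direction is given for it. Of 21 other LTPG loci, 12 were measured, 7 higher and 1 lower beside 29.5% and 24.8% of all genes, with a median of 0.61. XYP2, a relative of the xylogen protein of vascular tissue, was 4.23 ± 0.53 higher (adjusted p = 0.000447), AT2G27130 2.03 ± 0.29 higher, LTPG6 1.90 ± 0.19 higher and AT2G44290 fell by 1.48 ± 0.18. Under spike-in scaling 3 of the 12 were higher and 2 lower.

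Among DIR1, AZI1 and hybrid proline-rich relatives, which share the cysteine pattern of lipid transfer proteins, 11 of 23 listed genes were measured. Of these, 7 were higher and 2 lower, beside 29.5% and 24.8% of all genes, with a median difference of 1.74. The counts include AT4G22460, called higher, and AT4G22470, called lower. Each passed the filter on dim probes only through the group where it was high, and was at the floor on 4 of 4 arrays of the other group. Nothing is read from these 2 calls, and the median is the floored difference of AT4G22460. AT2G10940 was 7.33 ± 1.67 higher (SE, adjusted p = 0.00689), CWLP 5.41 ± 0.73 (adjusted p = 0.000632), DIR1-LIKE 4.97 ± 0.90 (adjusted p = 0.00235) and AT2G45180 3.15 ± 0.42 (adjusted p = 0.000586). On control arrays 1 to 4 AT2G10940 stood at -5.62, 1.58, -6.41 and -0.78, so control array 2 was highest there too. Each control array moved its difference by over 1.5-fold, from 6.13 without array 3 to 8.80 without array 2. With a gene's usable probes averaged in place of the brightest, the difference was 3.87 for AT2G10940 and 3.20 for CWLP. CWLP was at the floor on 2 of 4 control arrays, and the difference of CWLP (AT3G22120) was 4.46 after normexp correction. Without control array 2 the difference was 6.17 for CWLP and 5.90 for DIR1-LIKE, and DIR1-LIKE stood at 4.37 without control array 1. DIR1 itself, which carries a signal in systemic immunity, differed by -0.18 ± 0.20 and was not called (adjusted p = 0.477). Without control array 2, the difference of DIR1 (AT5G48485) was -0.37 and was called.

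**Figure D5:**
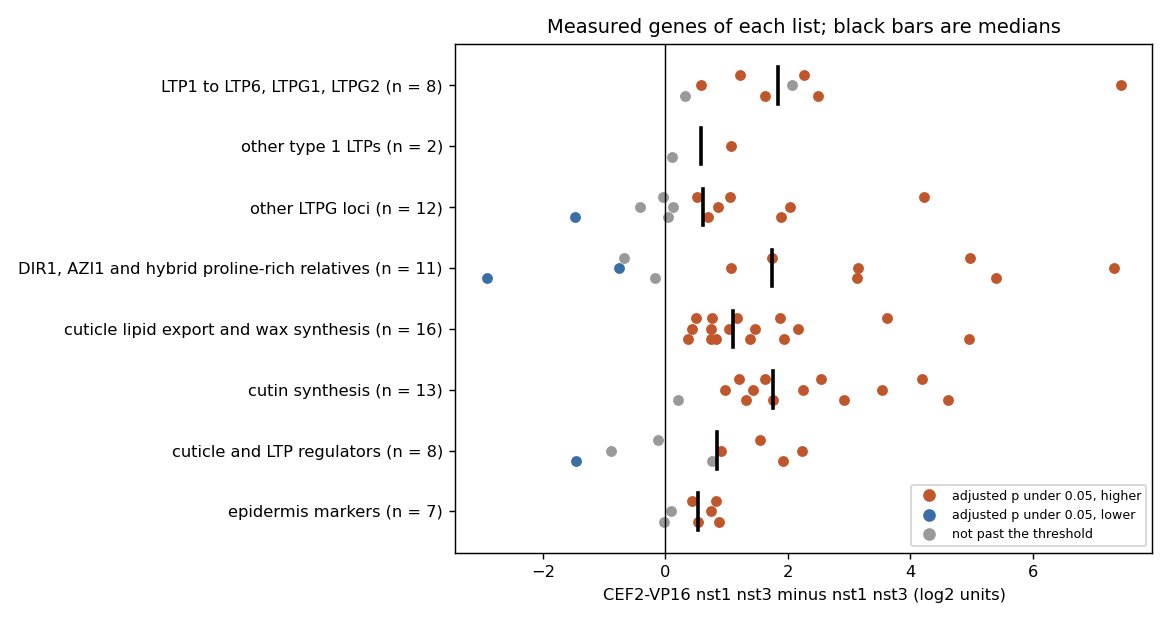
Difference of every measured gene in each list, CEF2-VP16 nst1 nst3 minus nst1 nst3, in log2 units. Colour marks genes past an adjusted p of 0.05 in either direction, black bars are list medians, and n is the number of measured genes. The 8 members have a median of 1.85, cutin synthesis 1.75 and wax synthesis and export 1.10.

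Genes that make or export the lipids of the cuticle were measured in the same stems. Of 16 genes of wax synthesis and export, 16 passed the test higher and none lower, beside 29.5% of all genes higher, with a median of 1.10; under spike-in scaling 8 of 16 were called. The exporters ABCG11 and ABCG12 were 0.74 ± 0.12 and 0.83 ± 0.09 higher (adjusted p = 0.0015 and 0.000234), and CER6, which elongates very-long-chain fatty acids, 0.74 ± 0.14 higher (adjusted p = 0.00321). These 3 calls were lost under spike-in scaling. CER4, which makes primary alcohols, was 4.96 ± 1.22 higher, WSD1, which makes wax esters, 3.63 ± 0.65, the alkane hydroxylase MAH1 2.16 ± 0.61, and CER1, of alkane synthesis, 1.94 ± 0.53. After normexp correction WSD1 differed by 2.80.

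Without control array 2 the difference of CER4 was 6.03, and without control array 3 it was 3.99. Among all genes 29.5% were higher, and 10.7% under spike-in scaling. Of 13 cutin genes 12 passed higher and none lower, with a median of 1.75, and 10 passed under spike-in scaling. By the rule for naming, these included CYP86A4 at 4.62 ± 0.80, LTL1 at 4.19 ± 0.56, CYP86A7 at 3.53 ± 0.50 and GPAT8 at 2.92 ± 0.46. LTL1 and CYP86A7 were well above background on 2 of 4 control arrays and at the floor on the other 2, so their differences and the order of these genes depend on the floor and the background correction. In the authors' value table, taken as deposited, LTL1 differed by 5.47 and CYP86A7 by 4.37, and after normexp correction LTL1 differed by 3.08, CYP86A7 by 2.51 and CYP86A4 by 3.37. Without control array 2 the difference was 5.48 for CYP86A4 and 4.78 for LTL1.

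Regulators of the cuticle and of lipid transfer genes were mixed. Of 11 listed, 8 were measured, 4 higher and 1 lower, beside 29.5% higher and 24.8% lower among all genes; under spike-in scaling 2 were higher and 2 lower. MYB16 was 2.23 ± 0.36 higher (SE, adjusted p = 0.00137) and SHN3 1.93 ± 0.20 higher (adjusted p = 0.000193), both activators of cuticle genes. DEWAX, a repressor of wax genes, was 1.55 ± 0.53 higher (adjusted p = 0.0372), and its groups overlapped. That call was lost under spike-in scaling, without the filter on dim probes, with the replicate block, and without any 1 of transgenic arrays 1 to 4 or control arrays 1 and 2. MYB96, the activator of wax genes and of LTP3, was at -1.32, -0.99, -1.41 and -0.99 on transgenic arrays 1 to 4, and at 0.36, 0.67, -0.10 and 0.17 on control arrays 1 to 4, with no overlap. It fell by 1.46 ± 0.18 (adjusted p = 0.000408).

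Markers of cell types were read beside these results. Among all genes 29.5% were higher and 24.8% lower, or 10.7% and 40.0% under spike-in scaling. Epidermis markers were higher for 5 of 7 and lower for none, and their summed signal was 31.3 to 33.2 times the 75th percentile in transgenic stems against 15.8 to 23.8 times in control stems; under spike-in scaling none of the 7 was called. CER6 made up most of the epidermis sum on each array and is also counted among the wax genes. The differences were 0.87 for PDF2, 0.82 for ACR4, 0.74 for CER6, 0.52 for FDH, 0.43 for ATML1, 0.08 for PDF1 and -0.02 for HDG2. Leaf and green tissue markers were higher for 4 of 5, 1 of 5 under spike-in scaling, summing to 666 to 858 times in transgenic stems against 495 to 674 times in control stems. Xylem vessel markers were higher for 4 and lower for 1 of 6, summing to 37.2 to 42.5 times in transgenic stems against 22.7 to 36.2 times in control stems; under spike-in scaling 2 were higher and 2 lower. Phloem markers were higher for 3 and lower for 1 of 5, summing to 17.5 to 21.9 times in transgenic stems against 18.5 to 18.8 times in control stems; under spike-in scaling 1 was higher and 2 were lower. The part of cell composition in the values of the 8 lipid transfer genes was not tested.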

How the data were processed

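RNA from stems of plants grown at 23 °C in 16 h light and 8 h dark was labelled with Cy3 from 200 ng and hybridised to single-colour Agilent arrays, per the labels' protocols. The deposited intensity values are background-corrected processed signals from Agilent Feature Extraction 11.5.1.1 per the file headers, while the submitters' processing notes name 9.1.3.1. A value table deposited by the authors is in natural log units: its columns matched the logged processed signals less 7.15 on transgenic and 7.39 on control arrays. It served as an alternative.

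Signals were divided by each array's 75th percentile, floored at 0.01 of it and taken to log2. Control spots were left out. Spots marked as outliers, 73 in all over the 8 arrays of 43803 spots each, were left out where the same probe had an unmarked spot. Where every spot of a probe was marked, its value was kept. Probes well above background on at least 4 arrays (31897) were kept, named by RefSeq accession through a TAIR10.1 gene table (34348 of 43603 probes matched; 9255 did not), and the brightest probe stood for a gene. Groups were compared with limma 3.58.1 (lmFit, eBayes, R 4.3.3) without covariates, with Benjamini-Hochberg adjustment over 19609 genes. The fit was tested on simulated data.

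The 8 genes, the gene lists and the tests were chosen with earlier results of these data known. Of each list up to 4 genes past the threshold were named by size of difference, with ABCG11, ABCG12, CER6, DIR1, MYB96, ERF035 and the 3 most similar profiles of each member. Alternatives were normexp correction of median signals (offset 50), median, quantile and spike-in scaling, the authors' table, other filters, 0.001 as floor, probes averaged per gene, each probe alone, trend and robust eBayes, array weights, a threshold of 0.01, the replicate number as a block, and leaving out arrays. The number of arrays limits the precision. Coordinates and sequences are not used here.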

Additional observations from a re-analysis of the deposited data

How the results depend on the processing

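Of the 8 lipid transfer genes 6 were called with all arrays, between 4 (adjusted p under 0.01) and 7 over the alternatives, and 6 to 7 with 1 array left out. Their median difference ran from 1.42 (normexp correction) to 1.96 (the authors' value table), and from 1.43 to 2.11 with 1 array left out. The genes called over all genes numbered 10634, with 7205 with the authors' value table and 12123 with array weights, and 8999 to 11279 with 1 array left out. Spike-in scaling called 5 other LTPG loci in place of 8, and 8 wax synthesis and export genes in place of 16. Cuticle and LTP regulators, 5 with all arrays, were 3 without the filter on dim probes, 3 at an adjusted p under 0.01, and 3 to 7 with 1 array left out. Differences that changed sign were that of CYP709B2, -0.19 without transgenic array 4 (up to 1.69 with another array left out), and under spike-in scaling those of BAM2, -0.096, PETC, -0.087, and ZKT, -0.11, beside LTP4 in the text; apart from the scaling or the array named, the cause was not tested. Same-numbered arrays of the groups correlated in their deviations at -0.04, -0.20, 0.16 and -0.40. These 4 values are too few to decide whether the numbers pair the arrays. With the replicate block 8619 genes and 6 of the 8 lipid transfer genes were called. Signal limits LTP2, which no control array measured, LTP6 near the floor, and LTP1 in the control stems, where 2 of 4 arrays were at it.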
